A study of Mus musculus with 16 samples.

Results

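The genes described here are 9 genes of the lipid-associated macrophage programme, taken as a named list with earlier results of these data known: Trem2, Gpnmb, Spp1, Fabp5, Apoe, Lpl, Cd9, Cd36 and Lgals3. Each has 1 row among the 32285 genes of the count matrices. Their levels were followed in macrophages, monocytes and their subsets from mouse B16 melanomas grown with or without tumour B2m and treated with an agonistic anti-CD40 antibody or its isotype control. C57BL/6J mice received 1000000 Bro4.1 B16 melanoma cells under the skin, either control cells or cells that had lost B2m, the light chain of MHC class I. On days 6, 9 and 12 they were injected intraperitoneally with 100 µg of anti-CD40 or of rat IgG2a isotype antibody, and tumours were taken on day 14. CD45-positive cells were enriched on magnetic beads, the cells of each mouse were marked with a hashtag antibody, and the mice of a group were pooled for a droplet-based 3′ single-cell lane. The 4 groups were isotype-treated mice with control tumours (5 mice), CD40-treated mice with control tumours (2 mice), isotype-treated mice with B2m-null tumours (5 mice) and CD40-treated mice with B2m-null tumours (4 mice). In the labels the genotype reads as if it belonged to the host animal. The study's own design description puts it in the melanoma cells, and that reading is used here. The sources used here give neither the age of the mice nor whether the B2m-null cells were a single clone. The 2 CD40-treated mice with control tumours came from 1 pool run on both of that group's lanes, so that in this group pool and treatment cannot be told apart.

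TREM2 is a lipid-sensing receptor of macrophages and microglia that signals through the adaptor TYROBP. Macrophages that take up lipid or dying cells in obese fat, atherosclerotic arteries, injured brain and tumours carry TREM2 together with genes of lipid uptake, transport and storage, and these cells are called lipid-associated macrophages. CD40, the target of the antibody, is a receptor on macrophages, dendritic cells and B cells that T cells normally engage. Of the 9 genes, Trem2 encodes the receptor itself, Gpnmb a transmembrane glycoprotein of lysosome-rich phagocytes and pigment cells, and Spp1 the secreted matrix protein osteopontin. Lpl encodes lipoprotein lipase, Cd36 a scavenger receptor for fatty acids and oxidised lipoproteins, Fabp5 an intracellular fatty acid carrier and Apoe the lipoprotein component apolipoprotein E. Cd9 encodes a membrane tetraspanin and Lgals3 the sugar-binding protein galectin-3.

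The 8 lanes held 116552 cell barcodes, with UMI totals of 46.0 to 99.3 per lane (in units of 1000000) and median depths of 1715 to 4225 UMIs per barcode. Any pair of lanes shared at most 0.623% of the smaller lane's barcodes. After filtering, 74114 cells were assigned to the 16 mice by hashtag, at 1178 to 17573 cells and UMI totals of 5.77 to 70.4 per mouse in the same unit. Clustering without the 9 genes gave 37181 macrophage-like and 11344 monocyte-like cells in 6 and 2 clusters, including cells that no hashtag assigned to a mouse. Classes were named from marker genes, so macrophages, monocytes and other cells below are cells like these by their transcripts, and summed macrophage markers averaged 10884, 8139, 11735 and 10007 CPM in the macrophages of isotype and CD40 mice with control and then with B2m-null tumours. Melanoma-like cells carried B2m at 1080 to 2123 CPM (UMIs of a gene in 1000000 UMIs of the cells) in the 4 lanes from control tumours and at 189 to 472 CPM in the 4 lanes from B2m-null tumours, whereas macrophages carried 2826 to 5794 CPM in all 8 lanes. Levels below are the summed UMIs of a class in a mouse, scaled to CPM, and mice are listed in the order of their numbers, which carries no meaning. In such sums, fewer cells that express a gene and less RNA in each cell cannot be told apart.

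The promoters of Gpnmb and Trem2 are shown because Gpnmb differed between treatments in macrophages and monocytes of both tumour types, whereas Trem2 passed no comparison of treatments in macrophages. Both are RefSeq windows on GRCm38.p6, from 250 bases before to 50 bases after the annotated start, on the plus strand, at chr6:49036268-49036567 for Gpnmb and chr17:48346151-48346450 for Trem2. Capitals mark the only match to the motifs searched, which were the E-box CACGTG, the letters CATGTG and the AP-1 motif TGACTCA, each on both strands.

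Gpnmb: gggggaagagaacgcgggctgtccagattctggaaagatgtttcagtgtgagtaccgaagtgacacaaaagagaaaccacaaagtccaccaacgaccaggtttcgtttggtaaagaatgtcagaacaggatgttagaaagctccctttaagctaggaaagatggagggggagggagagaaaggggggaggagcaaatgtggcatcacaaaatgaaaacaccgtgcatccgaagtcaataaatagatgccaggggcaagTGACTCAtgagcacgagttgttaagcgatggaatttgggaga

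Trem2: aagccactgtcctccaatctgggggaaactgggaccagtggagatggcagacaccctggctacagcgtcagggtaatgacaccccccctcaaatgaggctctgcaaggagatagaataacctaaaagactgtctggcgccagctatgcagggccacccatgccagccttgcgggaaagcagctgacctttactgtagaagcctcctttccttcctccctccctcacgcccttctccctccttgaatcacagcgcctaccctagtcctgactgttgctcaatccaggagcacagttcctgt

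The Gpnmb window held 1 TGACTCA, which stood among 5.20% of 32851 RefSeq windows of this length that carry it on either strand. The Trem2 window held none of these letters, and CACGTG, present in 7.15% of all windows, was in none of the 10 windows of the 7 genes that had an entry. Cd9 held 1 match to CATGTG on the reverse strand, which 14.2% of windows carry. A match is a string of letters and not a measured binding site.

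Macrophages held the highest mean level of Trem2, Fabp5, Apoe, Lpl and Lgals3 among the 15 cell classes with at least 1 mouse of 20 or more cells. Trem2 stood at 361 ± 77.9 CPM (SD, n = 16 mice) in macrophages, 139.5 ± 100.1 (n = 12) in neutrophils, 99.9 ± 33.6 (n = 16) in monocytes and 5.49 ± 3.51 (n = 16) in CD8 T cells. The neutrophil and monocyte levels of Trem2 overlapped in their ranges, and the macrophage level was above the neutrophil level by more than both SDs. B cells, which should lack Trem2, held 69.0 ± 84.35 CPM (n = 13). Gpnmb was highest in melanoma-like cells, at 1203 ± 210.5 CPM (n = 8), ahead of macrophages at 531 ± 295 and neutrophils at 201 ± 132. The gap between the melanoma-like and macrophage levels of Gpnmb was larger than their SDs together, and the macrophage and neutrophil levels overlapped in their ranges.

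Spp1 was not particular to macrophages by level. Neutrophils held 1989 ± 1202 CPM of Spp1 (n = 12), fibroblasts 1974 ± 1156 (n = 10) and macrophages 1508 ± 590.1, and these neighbours overlapped in their spread. Cd36 was highest in endothelial cells, at 596 ± 265 CPM in the 2 mice with enough of them, next to 494 ± 146 in macrophages. Cd9 was led by neutrophils at 1082 ± 296 CPM, and macrophages ranked 5th at 262 ± 65.9 with monocytes close behind at 238 ± 101. The heat map of levels by class shows the whole order.

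**Figure D1:**
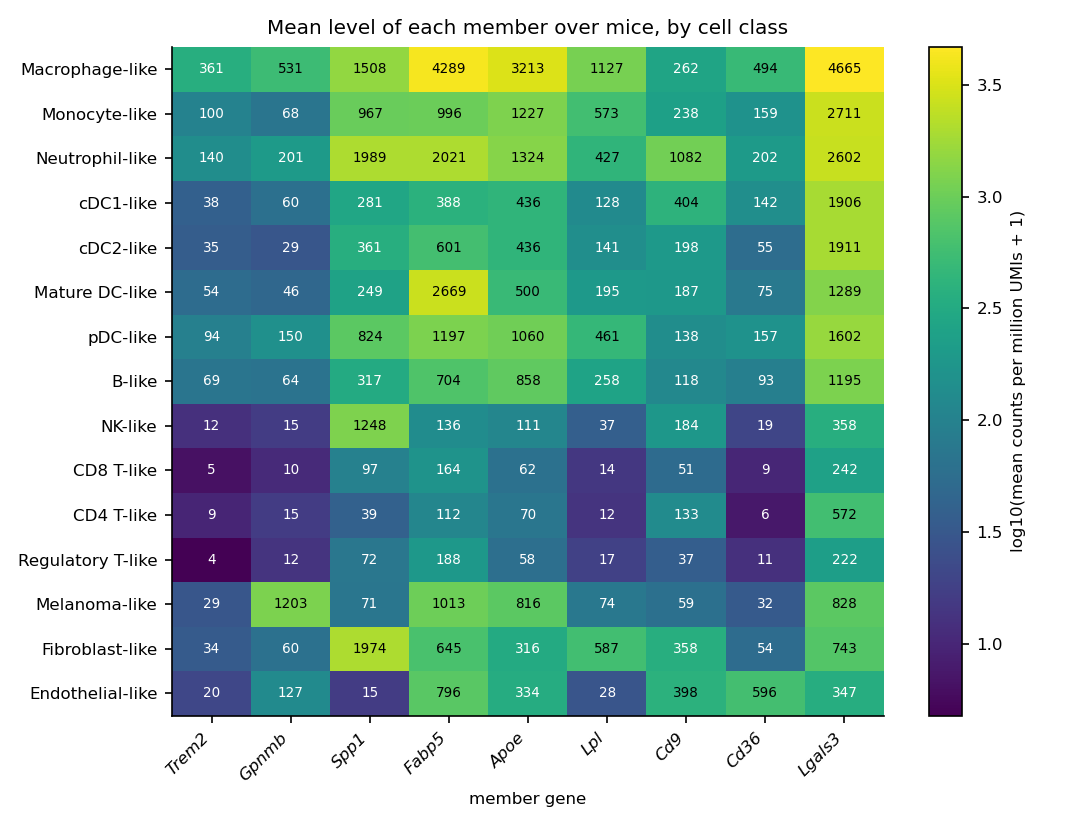
Mean level in CPM of the 9 genes (columns) in the 15 cell classes (rows), averaged over mice with at least 20 cells of the class, with each mean printed and colour on a log10 scale. Macrophages lead for Trem2, Fabp5, Apoe, Lpl and Lgals3, melanoma-like cells for Gpnmb at 1203 CPM and neutrophils for Cd9 at 1082 CPM.

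The difference between macrophages and lymphocytes was also seen cell by cell. Among macrophage-like cells thinned to 2000 UMIs, 43.6% had a Trem2 UMI and 34.2% a Gpnmb UMI (56.6% and 43.4% without thinning, at a median of 4006 UMIs). Among CD8 T cells these shares were 0.972% and 2.44% (1.51% and 3.15% without thinning, median 1605 UMIs). B cells, which should lack both genes, stood at 8.30% for Trem2 and 9.00% for Gpnmb (10.4% and 8.87% without thinning, median 2194.5 UMIs). In monocytes the thinned share was 14.6% for Trem2 and 7.68% for Gpnmb (19.3% and 9.09% without thinning, median 2490.5 UMIs). Over all groups, the monocyte share of Gpnmb thus lay below that of B cells and above that of CD8 T cells, and on its own it is not read as expression. Monocyte levels by treatment are given further on, beside those of both lymphocyte classes. The summed level of Gpnmb was likewise 68.4 ± 46.9 CPM (n = 16) in monocytes and 64.0 ± 65.4 (n = 13) in B cells, against 9.86 ± 5.59 (n = 16) in CD8 T cells.

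Within macrophages of the same mouse, cells with a Trem2 UMI more often had a UMI of the other genes at equal depth. Gpnmb was found in 39.8% ± 11.2 against 27.0% ± 7.34 (mean ± SD over mice) of Trem2-positive against Trem2-negative cells, and the share was higher in 16 of 16 mice. For Spp1 the shares were 45.6% ± 8.35 against 34.7% ± 7.76, for Fabp5 84.1% ± 5.58 against 71.5% ± 7.36 and for Cd36 50.1% ± 8.16 against 40.6% ± 7.50, again each higher in 16 of 16 mice. Apoe, Lpl and Lgals3 were higher in 15 mice, and Cd9, at 31.2% ± 5.63 against 26.4% ± 5.28, in 14. Cells of a mouse share their library, so these counts describe the 16 mice and are not a test over cells. Genes outside the set were not counted in this way, so the higher shares are not read as particular to these genes.

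Across the 26 clusters of at least 200 cells, the genes outside the list whose level followed that of Trem2 most closely were Ms4a7, Cd68, Ctsb, C1qc and Lgmn, with Pearson's r from 0.96 to 0.97 among 6875 genes. Lpl and Apoe followed Trem2 at 0.94, Lgals3 at 0.92 and Fabp5 at 0.90, and the lower values were 0.79 for Gpnmb, 0.78 for Cd36, 0.76 for Spp1 and 0.57 for Cd9. By rank among the 6875 genes, with Trem2 itself as 1, Lpl stood at 21, Apoe at 22, Lgals3 at 63 and Fabp5 at 97. Gpnmb ranked 356, Cd36 391, Spp1 428 and Cd9 967, so many genes outside the set followed Trem2 more closely. The clusters share libraries and differ in depth, and the values are a description.

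CD40 agonism was first compared with isotype in macrophages of control tumours. Of the 9 genes, 1 rose and 2 fell at an adjusted p under 0.05 in edgeR's quasi-likelihood test with Benjamini-Hochberg adjustment over 12020 genes, of which 12.2% rose and 11.4% fell. Gpnmb rose, Spp1 and Lpl fell, and the other 6 did not pass the test. In B2m-null tumours 4 rose (Gpnmb, Fabp5, Cd9 and Lgals3) and 2 fell (Lpl and Cd36), where 17.5% of all genes rose and 17.2% fell. The median log2 fold change of the 9 genes was 0.026 in control and 0.13 in B2m-null tumours, against -0.014 and -0.012 over all genes. Directions thus differed among the 9 genes. All adjusted p-values below are from this edgeR test unless another is named, and log2 fold changes are given with their standard error. The fold changes rest on TMM-scaled counts and the CPM values do not, so small differences can have opposite signs on the 2 scales. Where mice of compared groups are said below not to overlap, the share of all genes separated in this way is not given. Lack of overlap is thus a description and not a result.

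The receptor gene Trem2 did not pass the test in macrophages. It read 341, 244, 348, 388 and 428 CPM in the 5 isotype mice with control tumours and 353 and 358 in the 2 CD40 mice. With B2m-null tumours Trem2 read 479.8, 247, 319.9, 309 and 528 CPM under isotype and 308, 299, 424 and 403 under CD40. In both tumour types the CD40 mice lay inside the isotype range. The log2 fold changes were 0.14 ± 0.25 (edgeR adjusted p = 0.730) and 0.13 ± 0.21 (adjusted p = 0.677).

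Gpnmb rose in both tumour types. In control tumours it read 512, 209, 289, 299 and 394 CPM under isotype and 1201 and 1012 under CD40, so that both CD40 mice were above every isotype mouse. The fold was 3.52 (log2 1.82 ± 0.34, edgeR adjusted p = 0.00123), and the call held in 33 of 33 alternatives, with log2 values from 1.53 to 2.03. In 3 of these, without either CD40 mouse or with the lane as the unit (the 2 lanes of the pool summed), 1 sample is left in the CD40 group with control tumours, and the fit assumes that it varies like the other groups. With B2m-null tumours Gpnmb read 572, 204, 375, 338 and 471 CPM under isotype and 389.8, 565, 921 and 745 under CD40. Mice 3 and 4 of the CD40 group, which came from the second pool, were above every isotype mouse, whereas mice 1 and 2 lay inside the isotype range. This 1.92-fold rise (log2 0.94 ± 0.29, edgeR adjusted p = 0.0175) was lost in 5 of 35 alternatives: under a stricter cell filter, without CD40 mouse 3 or 4, without their pool, and without the first isotype pool, with log2 values down to 0.44 and an adjusted p of up to 0.380. The difference between the CD40 effects was -0.87 ± 0.46 and did not pass the test (adjusted p = 0.190).

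Because melanoma-like cells carried Gpnmb, the levels of melanoma markers in macrophages are given beside it. The summed melanoma markers read 40.4 to 58.1 CPM under isotype and 37.1 to 53.4 under CD40 with control tumours, and 34.2 to 64.4 under isotype and 19.7 to 25.2 under CD40 with B2m-null tumours. In macrophages without a UMI of these markers, the log2 fold change of Gpnmb was 1.74 in control tumours (edgeR adjusted p = 0.00215) and 0.87 in B2m-null tumours (adjusted p = 0.0330). Markers of other cells also moved with treatment: summed CD8 T cell markers read 8.40 to 19.7 CPM against 43.3 to 53.7 in control and 7.17 to 14.9 against 17.1 to 38.9 in B2m-null tumours. Summed neutrophil markers read 25.3 to 43.8 against 60.1 to 73.5 and 27.1 to 43.8 against 35.4 to 69.7 CPM in the same comparisons. Summed monocyte markers in macrophages were lower under CD40, at 681 to 1546 CPM against 360 to 467 in control and 888 to 1790 against 537 to 924 in B2m-null tumours. In macrophages without a T cell UMI, Gpnmb stood at 1.83 and 0.94 (adjusted p = 0.00123 and 0.0182), and the called genes of both comparisons kept their side of the threshold. The part of the neutrophil and monocyte transcripts in the results for the 9 genes, the falls of Spp1, Lpl and Cd36 included, was not tested.

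Spp1 fell in macrophages of control tumours and did not pass the test in those of B2m-null tumours. It read 998, 1195, 1623, 1868 and 1215 CPM under isotype and 542 and 564 under CD40 with control tumours, without overlap. The level was 2.30-fold lower under CD40 (log2 -1.20 ± 0.32, edgeR adjusted p = 0.0120). With B2m-null tumours Spp1 read 1862, 1139, 1555, 2178 and 2691 CPM under isotype and 1244, 1366, 1894 and 2189 under CD40, all CD40 mice inside the isotype range (log2 0.027 ± 0.24, adjusted p = 0.950). The difference between the CD40 effects was 1.23 ± 0.39 with an edgeR adjusted p of 0.0362. Leaving out either CD40-treated mouse with a control tumour, which leaves 1 in that group, ended the call in control tumours (adjusted p up to 0.116), and the call of the difference held in 17 of 33 alternatives, with log2 values from 0.82 to 1.57 and adjusted p-values of up to 0.163.

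Lpl fell in both tumour types. It read 1551, 1278, 1401, 1372 and 1133 CPM under isotype against 776 and 667 under CD40 with control tumours. With B2m-null tumours Lpl read 1741, 1003, 1305, 1434 and 1283 CPM under isotype against 750.5, 635, 787 and 908 under CD40. CD40-treated and isotype-treated mice did not overlap in either tumour type. Lpl was 1.73-fold lower in control tumours (log2 -0.79 ± 0.19, edgeR adjusted p = 0.00743) and 1.53-fold lower in B2m-null tumours (log2 -0.61 ± 0.15, adjusted p = 0.00458). The difference of the effects did not pass the test (0.18 ± 0.24, adjusted p = 0.650). The first call was lost without either CD40 mouse or without the first isotype pool (adjusted p up to 0.0889), and the second without the first CD40 pool (adjusted p = 0.0769).

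Cd36, the fatty acid scavenger receptor, fell in B2m-null tumours. With control tumours Cd36 read 563, 398, 461, 537 and 405 CPM under isotype and 649.6 and 329.8 under CD40, and the 2 CD40 mice stood on either side of the isotype range (log2 0.15 ± 0.24, edgeR adjusted p = 0.693). With B2m-null tumours it read 688, 394, 746, 652 and 662 CPM under isotype and 315, 338, 400.3 and 373 under CD40, where isotype mouse 2 alone lay in the CD40 range. The level was 1.54-fold lower there (log2 -0.62 ± 0.19, adjusted p = 0.0194), a call lost without CD40 mouse 1 or 2, without their pool, or without the second isotype pool (adjusted p up to 0.167). The difference of the effects was -0.77 ± 0.30 (adjusted p = 0.0832).

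Fabp5, the fatty acid carrier, rose in B2m-null tumours. With control tumours Fabp5 read 6659.7, 3679, 4179, 3328 and 3295 CPM under isotype and 4779 and 6567 under CD40, where isotype mouse 1 was above both CD40 mice (log2 0.54 ± 0.34, edgeR adjusted p = 0.259). With B2m-null tumours it read 3683, 1643, 2726, 3739.8 and 3748 CPM under isotype and 3146, 4685, 6567 and 6202 under CD40, with CD40 mice 2, 3 and 4 above every isotype mouse. The fold was 1.90 (log2 0.93 ± 0.28, adjusted p = 0.0149), and the call was lost with the lane as the unit, without CD40 mouse 3 or 4, without their pool, or without the first isotype pool (adjusted p up to 0.311). Over the 35 alternatives the log2 value of Fabp5 in B2m-null tumours ran from 0.48 to 1.27. Apoe, which passed in neither tumour type, read 3216, 2781, 2115, 2995 and 4363 CPM under isotype and 2405 and 3302 under CD40 with control tumours (log2 0.011 ± 0.47, adjusted p = 0.992). With B2m-null tumours Apoe read 4961, 4077, 2738, 3394 and 5121 CPM under isotype and 1185, 798, 4420.4 and 3538 under CD40 (log2 -0.49 ± 0.38, adjusted p = 0.342). The 2 CD40 pools stood apart: mice 1 and 2, of the first pool, were below every isotype mouse, and mice 3 and 4, of the second, inside the isotype range. Without the second CD40 pool the log2 value was -1.88 (adjusted p = 0.000846), and without the first it was 0.21 and not called.

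Cd9 and Lgals3 rose in macrophages of B2m-null tumours. With control tumours Cd9 read 189, 197, 280.3, 225 and 238 CPM under isotype and 257 and 170.0 under CD40, and Lgals3 read 5390.4, 4151, 5641, 4943 and 4914 and 5193 and 4254. Neither passed the test there (log2 0.021 ± 0.23, edgeR adjusted p = 0.966, and 0.026 ± 0.24, adjusted p = 0.958). With B2m-null tumours Cd9 read 280.3, 164, 264, 294 and 306 CPM under isotype and 265, 299, 364 and 405 under CD40, a 1.46-fold rise with overlap (log2 0.54 ± 0.18, adjusted p = 0.0270). With B2m-null tumours Lgals3 read 4077, 2227, 3367, 4194 and 5111 CPM under isotype and 4166, 4901, 5976 and 6142 under CD40, a 1.60-fold rise with CD40 mice 3 and 4 above every isotype mouse (log2 0.68 ± 0.19, adjusted p = 0.0114). The Cd9 call held in 27 of 35 alternatives and was lost at 2000 UMIs per cell, under a stricter cell filter, in cells without melanoma UMIs, with the lane as the unit, without CD40 mouse 3 or 4 or their pool, and without the first isotype pool (adjusted p up to 0.430, log2 values down to 0.26). The Lgals3 call held in 32 of 35 and was lost without the first isotype pool, without the second CD40 pool, and with the lane as the unit (adjusted p up to 0.226). Its log2 value ran from 0.37 to 0.94 over these alternatives.

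**Figure D2:**
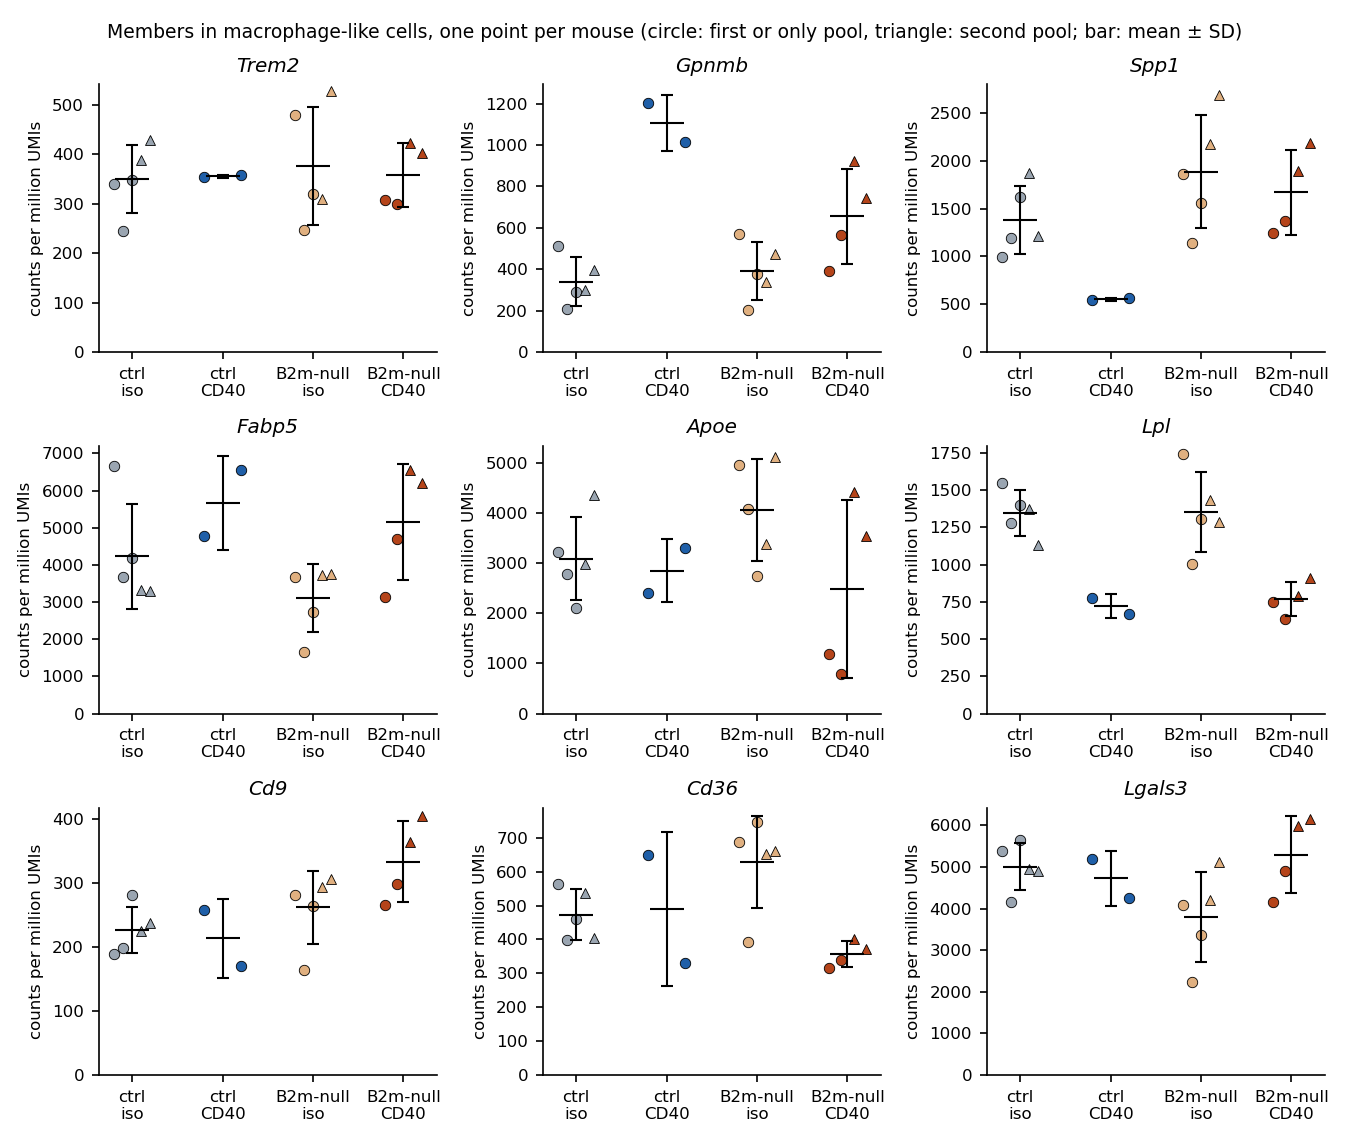
Level in CPM (vertical axis, from 0) of each of the 9 genes in macrophages, with a point per mouse in the 4 groups, circles for the first or only pool and triangles for the second, and a bar for the mean ± SD. Gpnmb stands at 1012 and 1201 CPM in the CD40-treated mice with control tumours, above every isotype mouse, and Lpl is lower under CD40 in both tumour types without overlap.

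Loss of tumour B2m was next compared at equal treatment in macrophages. Under isotype, 0 of the 9 genes passed edgeR's quasi-likelihood test, where 10.0% of all genes did. At an unadjusted p under 0.05 there was 1, Lgals3, at a log2 fold change of -0.46 ± 0.18 (edgeR adjusted p = 0.117), and DESeq2 called 0. Under CD40, 1 of 9 passed, where 13.3% of all genes did. This was Spp1, 3.08-fold higher with B2m-null than with control tumours and without overlap (log2 1.62 ± 0.33, edgeR adjusted p = 0.00636). The call was lost without either CD40-treated mouse with a control tumour and with the lane as the unit, each of which leaves 1 sample in that group (adjusted p up to 0.0809). Gpnmb, at -0.72 ± 0.36 (adjusted p = 0.194), and Cd9, at 0.68 ± 0.24 (adjusted p = 0.0693), did not pass. Their values did not overlap between these groups, which is not read as a result. Cd9 passed by DESeq2, without the low-count filter and under the stricter cell filter. For the difference of the CD40 effects between tumour types, Spp1 was the 1 call among the 9, where 19.2% of all genes passed. Apoe depended on the pool here too: without the second CD40 pool with B2m-null tumours it passed under CD40 (log2 -1.56, adjusted p = 0.00954) and for the difference of the effects (-1.89, adjusted p = 0.00632). The comparison under isotype uses the isotype mice of the earlier CD40 comparisons, the one under CD40 their CD40-treated mice, and the difference of the effects all of them, so none is independent of those comparisons.

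The macrophage clusters took different shares of the class in the 4 groups. Cluster 10, led by H2-M2, Gpnmb and Fabp5, held 44.4% of macrophages in CD40-treated control tumours, 5.94% under isotype, and 12.95% against 3.84% in B2m-null tumours. Cluster 7, led by Mmp12, Mmp13, Arg1 and Spp1, held 9.72% under CD40 against 29.4% under isotype in control tumours, and 29.0% against 33.7% in B2m-null tumours. Cluster 11, led by Vcam1, C1q genes and Stab1, held 36.5%, 17.1%, 31.0% and 26.1% in isotype and CD40 mice with control and then with B2m-null tumours. Cluster 9, led by Cd209f, Lyve1 and Cd163, held 10.6%, 24.3%, 19.9% and 22.5% in that order. Gpnmb, Fabp5 and Spp1 were kept out of the genes used for clustering.

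The mean levels of Gpnmb and Lpl also differed with treatment within clusters. In cluster 7, Gpnmb averaged 799 ± 256 CPM under isotype and 1795 ± 388 under CD40 with control tumours, and 844 ± 317 and 1246 ± 339 with B2m-null tumours (mean ± SD over mice). In cluster 10, Gpnmb averaged 760.5 ± 457 and 1879.9 ± 321 with control, and 728 ± 507 and 1264 ± 309 with B2m-null tumours. In cluster 9 its highest group mean was 168 CPM and in cluster 11 233, both in CD40-treated control tumours. The mean of Gpnmb was higher under CD40 in 6 of 6 clusters with control tumours and in 5 of 6 with B2m-null tumours, and that of Lpl lower in 6 of 6 with either.

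Spp1 was concentrated in cluster 7, at 3346 ± 830.5 CPM under isotype and 1287 ± 130.1 under CD40 with control tumours. With B2m-null tumours cluster 7 held 4207 ± 1344 CPM of Spp1 under isotype and 3534 ± 955 under CD40. Its mean was lower under CD40 in 6 of 6 clusters with control tumours and in 5 of 6 with B2m-null tumours. Lpl in cluster 11 averaged 1521 ± 129.5 CPM under isotype and 879 ± 119 under CD40 with control tumours, and 1547 ± 147 and 825 ± 115 with B2m-null tumours. Cd36 was lower in mean under CD40 in 5 of 6 clusters with control and 6 of 6 with B2m-null tumours, whereas Trem2 was higher in 3 and 4 of the 6. The clusters are parts of the same libraries, and these counts are descriptions.

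**Figure D3:**
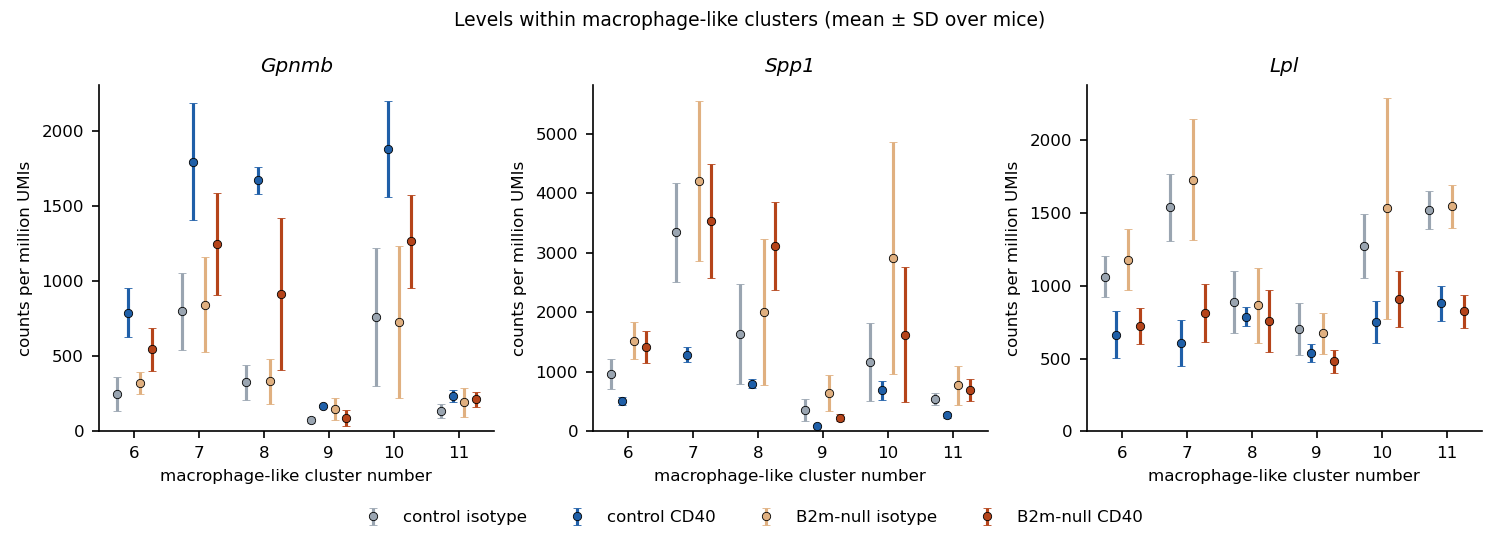
Mean ± SD over mice of the level in CPM (vertical axis, from 0) of Gpnmb, Spp1 and Lpl in the macrophage clusters 6 to 11 (horizontal axis) in the 4 groups. Gpnmb is highest in clusters 7, 8 and 10 under CD40 with control tumours, Spp1 is highest in cluster 7, and Lpl is lower under CD40 in all 6 clusters of either tumour type.

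In monocytes, which feed the tumour macrophage pool, 1 of the 9 genes rose and 0 fell under CD40 in control tumours by edgeR's quasi-likelihood test with Benjamini-Hochberg adjustment over 9580 genes, of which 5.03% rose and 3.0% fell. At an unadjusted p under 0.05 there were 4 in either direction, and DESeq2 called 1. The share of all genes at that unadjusted p is not given here, so the 4 are not read as a result. In B2m-null tumours 5 rose (Trem2, Gpnmb, Fabp5, Cd9 and Lgals3) and 1 fell (Lpl), where 18.1% of all genes rose and 17.0% fell. The median log2 fold change of the 9 was 1.00 there against -0.0066 over all genes, and 0.0044 against 0.0044 in control tumours. The 2 monocyte clusters changed share with treatment, and the part of this in the monocyte results was not tested. By mean log2 marker score, cluster 12 stood at 1.63 for monocyte and 1.28 for macrophage markers. Cluster 13 stood at 3.15 for monocyte markers, and its next class, non-classical monocytes, at 0.977. Cluster 12, led by Ly6i and Nos2, held 22.0% of monocytes under isotype and 51.4% under CD40 in control tumours, and 6.78% and 79.8% in B2m-null tumours, the remainder being cluster 13, led by Chil3 and Vcan. Summed monocyte markers averaged 4791 CPM under isotype and 2371 under CD40 in control tumours, and 4429 and 3039 in B2m-null tumours.

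Trem2 read 49.2, 60.1, 89.9, 119 and 92.3 CPM under isotype and 128 and 121 under CD40 in monocytes of control tumours. Both CD40 mice were above every isotype mouse, and the difference did not pass the test (log2 0.61 ± 0.24, edgeR adjusted p = 0.122). With B2m-null tumours monocyte Trem2 read 97.6, 76.6, 52.6, 62.8 and 107 CPM under isotype and 108, 148, 161 and 126 under CD40, again with no overlap. Here it rose 2.00-fold (log2 1.00 ± 0.20, edgeR adjusted p = 4.57e-04), a call that held in 35 of 35 alternatives with log2 values from 0.68 to 1.21. Summed macrophage markers in the same monocytes read 2388 to 3529 CPM under isotype and 3476 to 4108 under CD40, and their part in the Trem2 rise was not tested. The difference of the effects was 0.39 ± 0.31 (adjusted p = 0.469). Cluster 12 held 61.9 CPM of Trem2 under isotype and 151 under CD40 in B2m-null tumours, and cluster 13 held 79.4 and 73.7. The share of monocytes with a Trem2 UMI at 2000 UMIs was 12.4%, 19.5%, 9.88% and 17.7% in isotype and CD40 mice with control and then with B2m-null tumours, of which 9.88% is close to the 8.30% of B cells.

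Gpnmb rose in monocytes of both tumour types. It read 85.3, 27.9, 39.5, 46.4 and 17.9 CPM under isotype and 152 and 106 under CD40 with control tumours. With B2m-null tumours monocyte Gpnmb read 33.8, 38.3, 35.1, 19.5 and 26.5 CPM under isotype and 80.8, 136, 136 and 114 under CD40. No CD40 mouse overlapped an isotype mouse of its tumour type. The folds were 3.70 (log2 1.89 ± 0.29, edgeR adjusted p = 1.70e-04) and 4.98 (log2 2.32 ± 0.27, adjusted p = 1.22e-06), and the difference of the effects was 0.43 ± 0.41 (adjusted p = 0.550). The call in control tumours was lost under a stricter cell filter (log2 1.20, adjusted p = 0.0796) and in cells without a melanoma UMI (log2 1.15, adjusted p = 0.0583). It held in the other 31 of 33 alternatives, with log2 values down to 0.84 where the monocyte class came from a finer clustering (adjusted p = 0.0436), 1.20 at 2000 UMIs per cell (adjusted p = 0.00711) and 1.22 with the 9 genes kept in the clustering (adjusted p = 0.0189). The call in B2m-null tumours held in 35 of 35 alternatives, at 2.44 without melanoma UMIs and at 0.82 with the finer clustering. Melanoma markers summed to 24.1 to 42.6 and 30.2 to 48.3 CPM under isotype and CD40 with control tumours, and to 16.6 to 48.8 and 12.96 to 14.5 with B2m-null tumours.

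In cluster 12 the mean of Gpnmb was higher under CD40 in both tumour types. It was 38.2 ± 8.54 CPM under isotype and 182 ± 75.1 under CD40 with control tumours, and 50.2 ± 30.2 and 136 ± 37.2 with B2m-null tumours. In cluster 13 Gpnmb averaged 47.0, 34.3, 29.2 and 40.9 CPM in isotype and CD40 mice with control and then with B2m-null tumours. The difference between the clusters was not tested. For background, Gpnmb in CD8 T cells averaged 6.26 ± 2.82 CPM under isotype and 18.8 ± 2.12 under CD40 with control tumours, and 9.39 ± 6.73 and 10.5 ± 2.90 with B2m-null tumours. In the fewer B cells Gpnmb averaged 13.3 ± 12.4 (n = 4) and 147 ± 103 (n = 2), and 97.0 ± 61.3 (n = 3) and 48.6 ± 38.7 (n = 4) CPM in the same order. Gpnmb in B and CD8 T cells was thus also higher in mean under CD40 with control tumours, and their part in the monocyte result was not tested. At 2000 UMIs, 4.70%, 9.12%, 3.87% and 11.6% of monocytes had a Gpnmb UMI in isotype and CD40 mice with control and then with B2m-null tumours (5.47%, 10.2%, 4.08% and 17.2% without thinning, at medians of 2246, 2053, 1734 and 3733.5 UMIs). The B cell share of 9.00% lies among these values, with B2m-null CD40 the highest.

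Spp1 in monocytes read 774, 472, 1532, 830.3 and 436 CPM under isotype and 228 and 243 under CD40 with control tumours, without overlap and short of the threshold (log2 -1.70 ± 0.55, edgeR adjusted p = 0.0609). It passed in some alternatives, among them a finer clustering and the fits without either CD40 pool with B2m-null tumours. With B2m-null tumours monocyte Spp1 read 1858, 841, 978, 606 and 1667 CPM under isotype and 348, 930.0, 1613 and 2112 under CD40, with a wide spread in both groups (log2 0.30 ± 0.39, adjusted p = 0.592). Lpl read 715, 522, 959, 785 and 526 against 416 and 399 CPM with control tumours, without overlap (log2 -0.70 ± 0.28, adjusted p = 0.140). With B2m-null tumours monocyte Lpl read 1032, 528, 444, 769.9 and 569 CPM under isotype and 339, 239, 411 and 513 under CD40, 1.53-fold lower with overlap (log2 -0.62 ± 0.22, edgeR adjusted p = 0.0340). The Lpl call held in 25 of 35 alternatives and was lost without isotype mouse 1 or 4, without CD40 mouse 1 or 2, without either isotype pool or the first CD40 pool, by DESeq2, with the lane as the unit and at clustering resolution 2 (adjusted p up to 0.681). Its log2 value ran from -1.03 to -0.15 over these alternatives.

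Fabp5, Cd9 and Lgals3 rose in monocytes of B2m-null tumours. Fabp5 read 803, 259.8, 844, 1052 and 725 CPM under isotype and 765, 1468, 1619.8 and 1419 under CD40 (log2 1.03 ± 0.27, edgeR adjusted p = 0.00477). Cd9 read 278, 139.9, 142, 174 and 288 and 217, 345, 422 and 451 CPM (log2 1.03 ± 0.26, adjusted p = 0.00317). Lgals3 read 1948, 1427, 1532, 2504 and 2799 and 2616, 3482, 4188 and 4123 CPM (log2 1.01 ± 0.18, adjusted p = 1.62e-04). For each of these 3 genes CD40 mouse 1 was the lowest of the CD40 mice and lay inside the isotype range. Markers of other cells moved with treatment in these monocytes: summed neutrophil markers read 41.3 to 67.1 CPM under isotype and 65.8 to 227 under CD40, and summed macrophage markers had the ranges given for Trem2. Their part in these rises was not tested. The galectin call held in 35 of 35 alternatives, those of Fabp5 in 31 and of Cd9 in 33, and both were lost without the first isotype pool or the second CD40 pool (adjusted p up to 0.0755 and 0.0913). The Fabp5 call was also lost at 2000 UMIs per cell (log2 0.58, adjusted p = 0.0700) and at clustering resolution 2 (log2 0.67, adjusted p = 0.0579). With control tumours Fabp5 read 1368, 1099, 1133, 765 and 719 CPM under isotype and 750.4 and 1152 under CD40, Cd9 243, 102, 283, 185 and 153 and 211 and 175, and Lgals3 3008, 2663, 3353, 2973 and 2342 and 2511 and 1903, with adjusted p-values of 0.998, 0.890 and 0.470. Lgals3 was the 1 gene of the 9 whose CD40 effect differed between tumour types in monocytes, at 1.31 ± 0.30 (edgeR adjusted p = 0.00627), where 12.1% of all genes did. Spp1, Fabp5, Cd9, Cd36 and Apoe each passed for this difference in at least 1 alternative. That Lgals3 call held in 30 of 33 alternatives and was lost without the second CD40-treated mouse with a control tumour, with the lane as the unit and at clustering resolution 2 (adjusted p up to 0.114).

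Apoe and Cd36 passed in neither tumour type in monocytes. Apoe read 1056, 1547, 1214, 1918 and 2042 CPM under isotype and 681 and 1413 under CD40 with control tumours, and 1520.4, 1452, 1185, 711 and 1949 and 233, 266, 1549 and 892 with B2m-null tumours (edgeR adjusted p = 0.624 and 0.203). As in macrophages, CD40 mice 1 and 2 with B2m-null tumours were the lowest, and the log2 value was -2.27 without the second CD40 pool (adjusted p = 2.23e-05) and 0.071 without the first. Without that second pool Apoe also passed between tumour types under CD40 (-2.03, adjusted p = 0.00293) and for the difference of the effects (-1.78, adjusted p = 0.0104). Cd36 read 167, 111, 211, 211 and 100.4 and 238 and 139 CPM with control, and 206, 145, 216, 165 and 139.8 and 96.5, 102, 141 and 158 with B2m-null tumours (adjusted p = 0.565 and 0.395). The groups overlapped for Cd36 in both tumour types.

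Between tumour types at equal treatment, 0 of the 9 genes passed in monocytes under isotype, where 2.29% of all genes did. By edgeR 1 gene, Lgals3, reached an unadjusted p under 0.05 (log2 -0.52 ± 0.17, adjusted p = 0.119), and DESeq2 called 0. Under CD40, 2 of 9 passed, where 6.97% of all genes did. Spp1 was 5.63-fold higher with B2m-null tumours (log2 2.49 ± 0.58, edgeR adjusted p = 0.0132) and Lgals3 1.73-fold higher (log2 0.79 ± 0.24, adjusted p = 0.0485), both without overlap. Spp1 kept its call in 28 of 33 alternatives and lost it without either CD40-treated mouse with a control tumour, with the lane as the unit, at 2000 UMIs per cell, and without the second pool of CD40-treated mice with B2m-null tumours (adjusted p up to 0.160, log2 values down to 1.503). Lgals3 kept its call in 13 of 33 (adjusted p up to 0.380), losing it at 2000 UMIs per cell and without any of the 5 isotype mice with control tumours, among others.

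**Figure D4:**
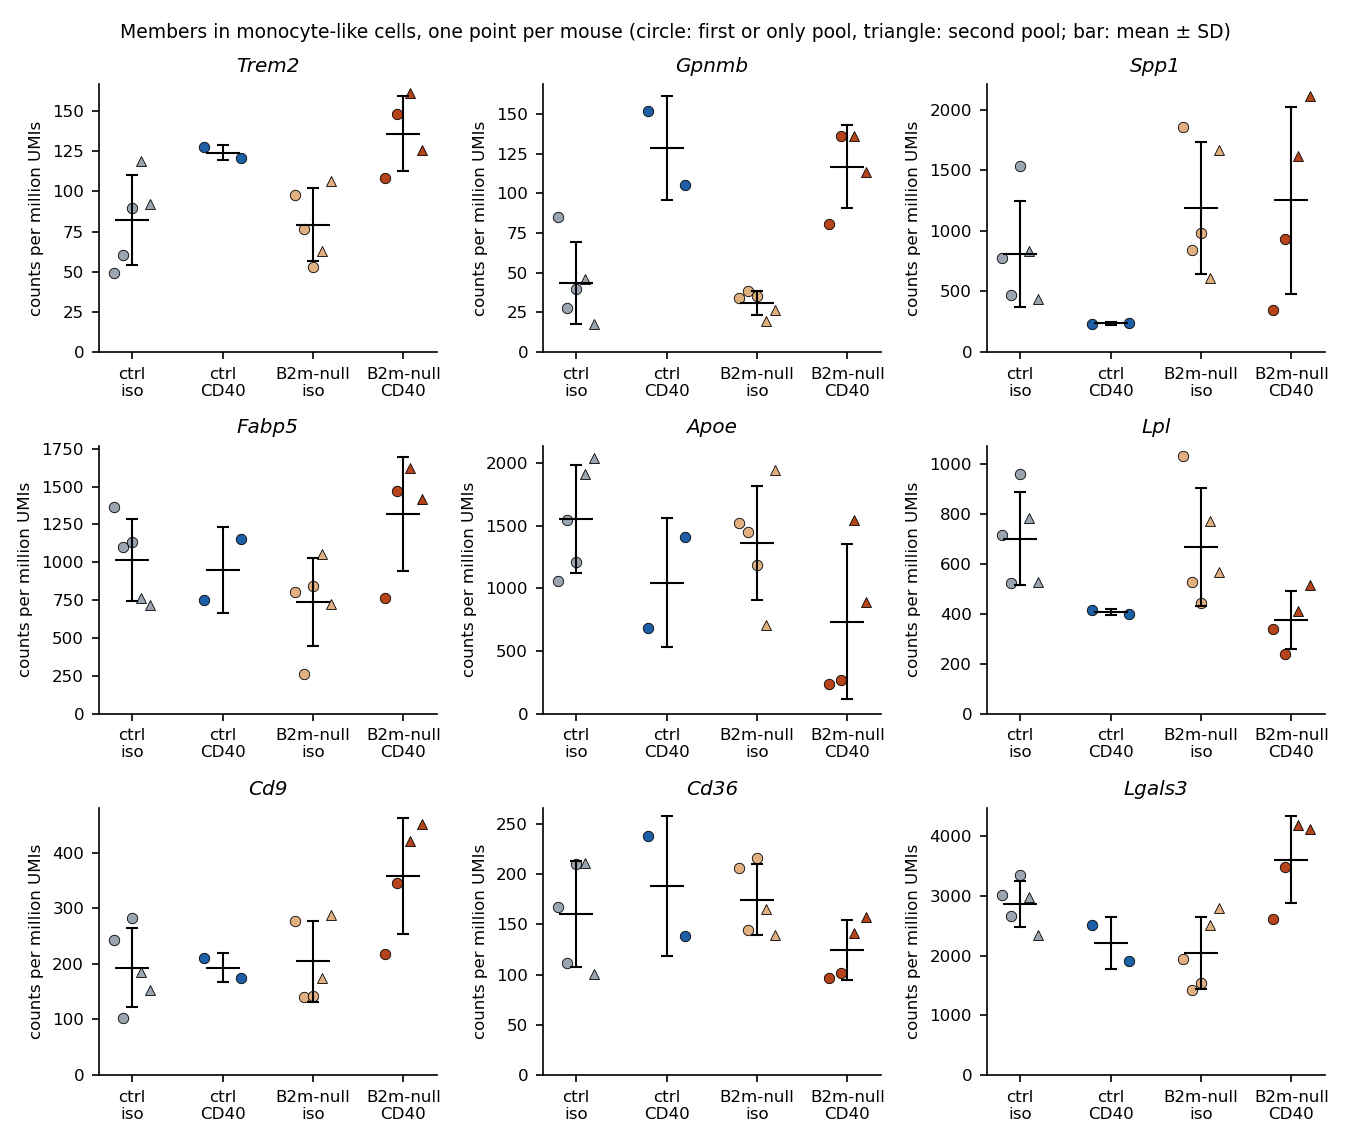
Level in CPM (vertical axis, from 0) of each of the 9 genes in monocytes, with a point per mouse in the 4 groups, circles for the first or only pool and triangles for the second, and a bar for the mean ± SD. Gpnmb is higher in every CD40-treated mouse than in every isotype-treated mouse of the same tumour type, and Trem2 shows the same separation at 108 to 161 CPM against 52.6 to 107 CPM in B2m-null tumours.

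The 9 genes were then followed through subsets of the macrophage and monocyte cells, defined by transcripts that are not among them. A cell was positive for a gate at a minimum of UMIs of its gate genes: 5 for C1q, 3 for the classical monocyte and interferon gates, 2 for the non-classical, resident-like, Mmp12, Arg1 and Ctsk gates and 1 for the Vcam1, Nos2 and H2-M2 gates. The Vcam1 gate also needed a C1q-positive cell, and its negative cells were all other macrophages and monocytes, C1q-negative ones included. Positive and negative cells of the same mouse were compared on log2 (CPM + 10) by an exact two-sided sign-flip permutation test over mice with at least 20 cells of each kind, with Benjamini-Hochberg adjustment over the 7510 to 7514 genes tested in a gate. Gates overlap, and positive cells are deeper because a minimum of UMIs chose them. The differences below are of positive minus negative cells.

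The Mmp12 gate, after the secreted elastase of tissue-remodelling macrophages, held most of the set: 8 of the 9 genes were higher and 1 lower in positive cells of 16 mice, where 16.1% of all genes were higher and 55.4% lower. Gpnmb averaged 996 ± 486 CPM in positive and 229 ± 205 in negative cells, a mean log2 difference of 2.28 ± 0.43 (SD), higher in 16 of 16 mice (exact permutation test, adjusted p = 1.22e-04). Cd9 averaged 493 ± 88.9 against 152 ± 34.2 CPM (log2 1.64) and Spp1 2559.8 ± 954 against 855 ± 319 CPM (log2 1.57), at the same exact adjusted p. The log2 differences of Fabp5, Cd36, Lgals3, Lpl and Trem2 were 1.35, 1.23, 1.13, 0.67 and 0.61. Apoe alone was lower, at 2409 ± 1151 against 3271 ± 1409 CPM (log2 -0.42, higher in 3 of 16 mice, exact adjusted p = 0.00419). Each of the 9 kept its direction and call when cells were thinned to 2000 UMIs, where 912 of 7513 genes were higher and 3153 lower, and the Apoe call was lost with the lane as the unit.

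The Ctsk gate, after the protease of bone-resorbing and matrix-degrading phagocytes, gave the same split in 15 mice, 8 higher and 1 lower, where 10.6% of all genes were higher and 37.2% lower. Gpnmb led at a log2 difference of 1.96, and Trem2, at 508 ± 120.3 against 319 ± 84.1 CPM (log2 0.66), reached its highest mean of any gate here. Apoe was lower, at -0.48. The gate drew on cells named macrophage or monocyte, so cluster 15, 208 unnamed cells led by Mmp9, Ctsk and Acp5, was outside it. Over all its cells that cluster held Trem2 at 343, Gpnmb at 385, Spp1 at 1149, Fabp5 at 1735 and Apoe at 1520 CPM. Its Lpl stood at 1179, Cd9 at 569, Cd36 at 24.3 and Lgals3 at 2591 CPM, and it was not tested. At 2000 UMIs per cell 10 mice could be compared, and 7 genes were higher and 0 lower, where 185 of 7513 genes were higher and 411 lower: Trem2, at 0.54, and Apoe, at -0.48, lost their calls (exact permutation adjusted p = 0.0880 and 0.172).

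In the Arg1 gate, after arginase, 7 genes were higher and 1 lower in 16 mice, where 13.4% of all genes were higher and 49.0% lower. Spp1 led it at a log2 difference of 1.42, followed by Cd36 at 0.89 and Gpnmb at 0.88, whereas Apoe was lower at -0.25 and Lpl, at -0.026, did not pass. At 2000 UMIs per cell Lpl passed as lower in the Arg1 gate (-0.33, exact permutation adjusted p = 0.00225), where 758 of 7513 genes were higher and 2486 lower. In the Nos2 gate, after inducible nitric oxide synthase, 6 were higher and 2 lower in 15 mice, where 12.4% of all genes were higher and 46.5% lower. Gpnmb (0.79), Cd9 (0.77) and Fabp5 (0.71) led, and Apoe (-0.64) and Lpl (-0.22) were lower. Trem2 at -0.12 did not pass in the Nos2 gate (exact permutation adjusted p = 0.117), and at 2000 UMIs per cell it passed as lower in 14 mice (-0.30, exact adjusted p = 0.0150), where 586 of 7513 genes were higher and 2079 lower. With the lane as the unit, the calls of Gpnmb and Apoe in the Arg1 gate and of Cd36 in the Nos2 gate were lost.

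The C1q, Vcam1 and resident-like gates split the set, and the split changed when cells were thinned to 2000 UMIs and gated anew. C1q-positive cells had 4 genes higher and 2 lower in 16 mice, where 33.6% of all genes were higher and 31.1% lower. Apoe averaged 3321 ± 1275 CPM in positive and 1328 ± 711 in negative cells (log2 1.42) and Trem2 354 ± 82.5 and 196 ± 60.4 (log2 0.84). Lpl and Fabp5 were higher by 0.63 and 0.45, and Cd9 and Spp1 differed by -0.75 and -0.73. With cells thinned to 2000 UMIs, 3 genes were higher (Apoe, Trem2 and Lpl) and 5 lower in the C1q gate, where 1991 of 7511 genes were higher and 1484 lower. Gpnmb (-0.79), Cd36 (-0.36) and Lgals3 (-0.44) then also passed as lower beside Spp1 and Cd9, and Fabp5 turned to -0.087 and did not pass.

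The Vcam1 gate, cells positive for both Vcam1 and C1q, had 4 genes higher and 4 lower in 16 mice, where 29.8% of all genes were higher and 28.6% lower. Lpl (0.44), Apoe (0.32), Trem2 (0.24) and Fabp5 (0.23) were higher. Spp1 (-0.83), Cd9 (-0.54), Cd36 (-0.42) and Gpnmb (-0.36) were lower. Resident-like cells, chosen by summed Lyve1, Cd163 and Folr2 UMIs, had 4 genes higher and 1 lower in 16 mice, where 22.6% of all genes were higher and 29.2% lower. Apoe (0.78), Trem2 (0.52), Cd36 (0.28) and Fabp5 (0.16) were higher and Cd9 (-0.49) lower. At 2000 UMIs per cell 2 genes were higher (Apoe and Lpl) and 5 lower in the Vcam1 gate, where 1086 of 7510 genes were higher and 1083 lower. Lgals3 (-0.37) joined the lower genes there and Fabp5 turned to -0.064. In the resident-like gate 1 gene, Apoe (0.97), was higher at that depth and 6 were lower, where 998 of 7511 genes were higher and 1603 lower. The 6 were Gpnmb (-1.01), Spp1 (-1.16), Fabp5 (-0.94), Lpl (-0.52), Cd9 (-1.26) and Lgals3 (-0.91), at exact permutation adjusted p-values of up to 0.00218, and Cd36 turned to -0.055. Trem2 kept its direction and lost its call at 2000 UMIs per cell in the Vcam1 gate (0.081, exact permutation adjusted p = 0.519) and in the resident-like gate (0.11, exact adjusted p = 0.479). In macrophages alone Trem2 in the Vcam1 gate was at 0.044 (exact adjusted p = 0.377) and Apoe at 0.14 (exact adjusted p = 0.281), and the Apoe call in this gate held in 6 of 12 alternatives. Fabp5 in the Vcam1 gate (0.013, exact adjusted p = 0.878) and Cd36 in the resident-like gate (0.061, exact adjusted p = 0.518) also lost their calls in macrophages alone. With the lane as the unit, the Vcam1 calls of Spp1 (exact adjusted p = 0.0828), Gpnmb (exact adjusted p = 0.1997), Fabp5 and Apoe and the resident-like calls of Fabp5 and Cd36 were lost. In the resident-like gate Fabp5 passed as higher in 5 of 12 alternatives. It also lost that call in macrophages alone and without the first CD40 pool or the second isotype pool with B2m-null tumours or either isotype pool with control tumours (exact permutation adjusted p up to 0.267).

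In the interferon gate 5 genes were higher and 0 lower in 16 mice, where 11.8% of all genes were higher and 35.8% lower. Gpnmb (0.50), Fabp5 (0.46) and Lgals3 (0.38) led. At 2000 UMIs per cell the calls of Gpnmb, Fabp5, Cd9 and Cd36 in this gate were lost and 1 of the 5, Lgals3, kept its call, while Lpl passed as lower, where 539 of 7510 genes were higher and 1516 lower. The Gpnmb call in this gate was also lost with the lane as the unit. The Cd9 call (0.17) held in 7 of 12 alternatives, and beside the thinning it was lost without the second isotype or the second CD40 pool with B2m-null tumours and without the first isotype pool or the CD40 pool with control tumours (exact permutation adjusted p up to 0.123). In the H2-M2 gate 5 were higher and 0 lower in 9 mice, where 4.5% of all genes were higher and 19.2% lower. Gpnmb (1.03), Cd9 (0.93), Fabp5 (0.80), Lpl (0.42) and Lgals3 (0.39) were higher, at an exact permutation adjusted p of 0.0494 for Lpl and 0.0297 for the other 4. In settings that left 7 mice, 0 of the 7513 genes passed in this gate. The smallest p of the exact permutation test is 0.0156 there, and none can pass unless a large part of all genes reach it. The difference of Gpnmb lay between 0.99 and 1.19 over all 12 alternatives. Lpl also failed to pass with 8 mice, without the second B2m-null or the first control isotype pool, and in macrophages alone, and its call held in 3 of 12 alternatives. At an unadjusted p under 0.05 of the exact permutation test, Lpl in the interferon gate was lower (-0.11, adjusted p = 0.0809) and no gene of the set was lower in the H2-M2 gate.

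The classical monocyte gate took cells of both classes, macrophage and monocyte, by summed Ly6c2, Chil3 and Vcan UMIs. In its positive cells 0 genes were higher and 7 lower in 16 mice, where 24.1% of all genes were higher and 32.9% lower. Gpnmb (-0.81) and Trem2 (-0.72) were lower by the most, with values over 12 alternatives of -1.83 to -0.23 and -1.51 to -0.30, and Spp1 (0.15) and Cd9 (-0.039) did not pass. Within macrophages alone the split of this gate differed: Cd9 (0.25, exact permutation adjusted p = 0.0179), Lgals3 (0.17, exact adjusted p = 0.00660) and Spp1 passed as higher, and Gpnmb and Fabp5 lost their calls, where 884 of 7511 genes were higher and 1595 lower. Fabp5 ranged from -1.42 to 0.024 over the alternatives, Apoe from -1.39 to -0.27 and Cd36 from -1.20 to -0.21, with the lowest value of each at 2000 UMIs per cell. At 2000 UMIs per cell over macrophages and monocytes, Cd9 passed as lower as well, where 1149 of 7511 genes were higher and 1909 lower. Trem2 averaged 212 ± 74.3 CPM in positive cells of this gate against 347 ± 87.0 in the others. Gpnmb averaged 279 ± 156 against 497 ± 284 CPM in the same cells. The monocyte class as a whole held less of both, at 99.9 ± 33.6 CPM of Trem2 and 68.4 ± 46.9 of Gpnmb. Non-classical cells, chosen by summed Ace and Treml4 UMIs, could be compared in 8 mice, and 0 genes were higher and 0 lower, with 0.0% of all genes higher and 0.0% lower. At an unadjusted p under 0.05 of the exact permutation test there were 5 of the 9, with Trem2, Lpl, Fabp5 and Lgals3 lower and Cd9 higher (log2 0.39, in 7 of 8 mice), and the smallest p that 8 mice allow is 0.00781. The share of all genes under that unadjusted threshold is not given here, so these 5 are not read as a result.

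**Figure D5:**
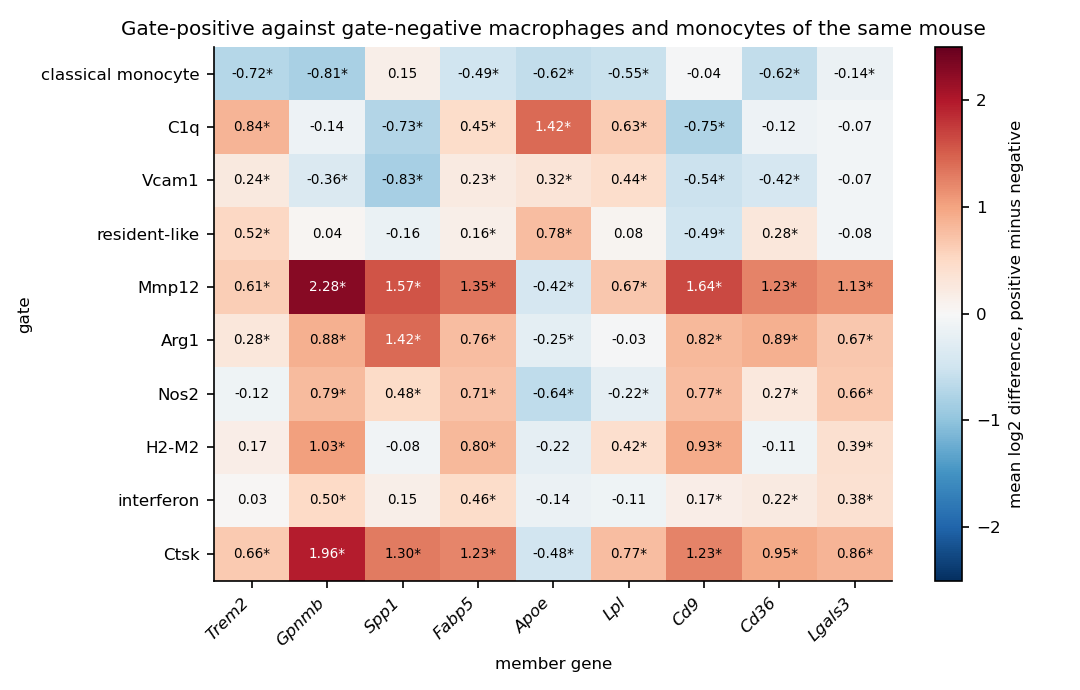
Mean log2 difference in level, on the log2 (CPM + 10) scale, between positive and negative cells of the same mouse for the 9 genes (columns) in 10 gates (rows, without the non-classical gate), with an asterisk where the adjusted p of the exact permutation test is under 0.05. The Mmp12 and Ctsk gates are higher for 8 of the 9 genes and lower for Apoe, and no gene passes in the higher direction in the classical monocyte gate.

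Inside the Mmp12, Nos2 and Vcam1 gates, the mean of Gpnmb was higher under CD40 than under isotype in both tumour types. In Mmp12-positive cells Gpnmb read 959, 521, 566, 590.1 and 969 CPM under isotype and 2042 and 2039.6 under CD40 with control tumours. With B2m-null tumours Mmp12-positive cells held 1048, 536, 776, 592 and 943 CPM of Gpnmb under isotype and 849, 814, 1501 and 1198 under CD40. The CD40-treated mice with control tumours were again above every isotype mouse. In Nos2-positive cells Gpnmb averaged 483 ± 214 CPM under isotype and 1444 ± 36.7 under CD40 with control tumours, and 648 ± 236 and 801 ± 408 with B2m-null tumours. In Vcam1-positive cells the means of Gpnmb were 208 ± 54.0, 848 ± 147, 300.3 ± 125 and 554 ± 223 CPM in isotype and CD40 mice with control and then with B2m-null tumours. These values within gates were not tested.

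Spp1 in Mmp12-positive cells averaged 2285 ± 405 CPM under isotype and 1111 ± 167 under CD40 with control tumours, and 3065 ± 1099 and 2997 ± 709 with B2m-null tumours. In cells of the classical monocyte gate Spp1 averaged 1521 ± 882 and 359 ± 229 CPM with control, and 2324 ± 963 and 2110.3 ± 1283 with B2m-null tumours. In both gates the mean of Spp1 was lowest in CD40-treated mice with control tumours, a description without a test. Lpl in C1q-positive cells averaged 1354 ± 150.1 and 750.0 ± 112 CPM with control, and 1345 ± 253 and 727 ± 161 with B2m-null tumours, isotype before CD40. Trem2 in C1q-positive cells stayed between group means of 334 ± 73.8 and 382 ± 121 CPM, and in cells of the classical monocyte gate between 182 ± 17.4 and 249.8 ± 113. Apoe in resident-like cells averaged 4096 ± 824 and 3861 ± 276 CPM with control, and 5045 ± 587 and 2716 ± 1823 with B2m-null tumours. The last group read 1424, 998, 4861 and 3581 CPM by mouse, with mice 1 and 2 of the first pool low and mice 3 and 4 of the second high.

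The shares of cells in the gates are given by group as a description, without a test. Nos2-positive cells were 8.66% ± 3.51 (SD) of macrophages and monocytes under isotype and 19.6% ± 3.25 under CD40 with control tumours, and 3.98% ± 2.57 and 28.3% ± 6.94 with B2m-null tumours. H2-M2-positive cells were 1.19% ± 0.565 and 5.85% ± 3.26 with control, and 0.700% ± 0.392 and 5.06% ± 1.75 with B2m-null tumours. Cells of the classical monocyte gate were 20.3% ± 5.81 and 2.93% ± 0.446 with control, and 16.7% ± 6.75 and 16.6% ± 3.80 with B2m-null tumours. Gpnmb and Trem2 were lower in them than in the other macrophages and monocytes. Mmp12-positive cells, rich in 8 of the 9 genes, were 21.0% ± 6.04 and 14.9% ± 3.40 with control, and 23.5% ± 9.52 and 25.8% ± 8.17 with B2m-null tumours. A gate's share depends on depth, and at 2000 UMIs the Nos2 shares over all cells were 5.60%, 17.6%, 2.51% and 19.7% in isotype and CD40 mice with control and then with B2m-null tumours. In the same order the H2-M2 shares were then 0.60%, 5.20%, 0.44% and 2.70%. Those of the classical monocyte gate were 13.9%, 1.62%, 10.8% and 9.90%, and those of the Mmp12 gate 17.3%, 11.9%, 19.9% and 20.2%.

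Other genes of the TREM2 pathway, from 4 lists chosen with earlier results of these data known, were counted in the same fits. The genes named are the 3 of lowest adjusted p in each comparison. A gene named for 1 tumour type may thus also have passed in the other, and the naming sets no contrast between tumour types. Of 10 TREM2 signalling genes, 3 rose and 2 fell under CD40 in macrophages of control tumours, and 4 rose and 3 fell in those of B2m-null tumours. Of all genes tested, 12.2% rose and 11.4% fell in the first comparison and 17.5% and 17.2% in the second. Ms4a4a, a membrane gene of the locus linked to soluble TREM2, fell in both (log2 -2.58 ± 0.31, edgeR adjusted p = 1.91e-05, and -2.43 ± 0.24, adjusted p = 4.51e-06). Hcst, a signalling adaptor also used by T and NK cells, rose in control tumours (log2 2.09 ± 0.15, adjusted p = 1.22e-07). Ms4a6d fell there (-0.66 ± 0.17, adjusted p = 0.00971). Both genes also passed in macrophages of B2m-null tumours. Summed CD8 T cell markers were higher under CD40 in macrophages of both tumour types, and their part in the Hcst result was not tested. In B2m-null tumours the adaptor Tyrobp (0.47 ± 0.11, adjusted p = 0.00307) and the phospholipase Plcg2 (0.39 ± 0.10, adjusted p = 0.00764) rose. In monocytes 1 rose and 3 fell with control tumours (Hcst 1.38 ± 0.19, Ms4a6d -1.07 ± 0.18 and Ms4a4a -2.58 ± 0.44 had the lowest adjusted p-values), where 5.03% of all genes rose and 3.0% fell. With B2m-null tumours 2 rose and 3 fell in monocytes, against 18.1% and 17.0% of all genes (Ms4a4a -2.98 ± 0.30, Adam10 -0.51 ± 0.15 and Ms4a6d 0.45 ± 0.13).

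Of 24 measured further genes of lipid-associated phagocytes, 6 rose and 3 fell in macrophages of control tumours and 7 rose and 2 fell in those of B2m-null tumours, beside 12.2% and 11.4% and then 17.5% and 17.2% of all genes. The lysosomal protease inhibitors Cst7 (2.53 ± 0.37) and Cstb (0.61 ± 0.13) and the protease Ctsd (0.76 ± 0.16) rose in the first. In the second, Cstb (0.83 ± 0.11) and the actin-capping gene Capg (0.89 ± 0.14) rose and Ank, a pyrophosphate transporter, fell (-0.998 ± 0.17). Ank also passed in macrophages of control tumours. In monocytes 2 rose and 3 fell with control tumours (5.03% and 3.0% of all genes), Ctsd (1.02 ± 0.16), Cstb (0.54 ± 0.14) and Csf1 (-1.94 ± 0.54) being the 3 with the lowest adjusted p. With B2m-null tumours 15 rose and 3 fell in monocytes, where 18.1% of all genes rose and 17.0% fell, with a median log2 fold change of 0.60 over the 24 genes. Macrophage and neutrophil markers and the share of cluster 12 also moved with treatment in these monocytes, and their part was not tested. Cstb (1.32 ± 0.12) and the cholesterol carrier Npc2 (0.66 ± 0.083) rose there and Ank fell (-2.32 ± 0.23). The edgeR adjusted p-values of these named calls ran from 2.43e-08 to 0.0260.

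Of 20 genes of lipid uptake, storage and efflux, 6 rose and 1 fell in macrophages of control tumours and 4 rose and 6 fell in those of B2m-null tumours, and the shares of all genes were again 12.2% and 11.4%, and 17.5% and 17.2%. Acsl1, which activates fatty acids, rose by 1.31 ± 0.20 and 1.95 ± 0.17 on the log2 scale (edgeR adjusted p = 1.82e-04 and 1.94e-06). Soat1, which esterifies cholesterol, rose (0.96 ± 0.13) and the lipid-sensing receptor Pparg fell (-1.05 ± 0.17) in control tumours. Mylip (-1.04 ± 0.15) and the cholesterol exporter Abca1 (-0.88 ± 0.13) fell in B2m-null tumours. Soat1, Pparg, Mylip and Abca1 each also reached an unadjusted edgeR p under 0.05 in macrophages of the other tumour type. In monocytes, where 19 were tested, 3 rose and 2 fell with control tumours (all genes 5.03% and 3.0%), with Abca1 (1.71 ± 0.24), Acsl1 (1.92 ± 0.28) and Nr1h3 (1.11 ± 0.28) rising. With B2m-null tumours 5 rose and 3 fell (all genes 18.1% and 17.0%), with Acsl1 (2.55 ± 0.26) rising and Pparg (-1.66 ± 0.29) falling.

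The 4 MiT/TFE genes, whose products drive lysosomal genes and bind E-box motifs, were counted last. In macrophages of control tumours 0 of 4 passed in edgeR, where 12.2% of all genes rose and 11.4% fell. Among the 4, 1 reached an unadjusted p under 0.05 (Tfeb 0.31 ± 0.13, adjusted p = 0.0839), and DESeq2 called 0. In macrophages of B2m-null tumours Tfeb rose (0.32 ± 0.11, adjusted p = 0.0268) and Mitf fell (-0.41 ± 0.096, adjusted p = 0.00343), where 17.5% of all genes rose and 17.2% fell. In monocytes 0 of 4 passed in edgeR in either tumour type and DESeq2 called 0 in both. Of all genes, 5.03% rose and 3.0% fell in monocytes with control tumours, and 18.1% and 17.0% with B2m-null tumours. At an unadjusted p under 0.05 there were 0 of the 4 with control tumours and 1 with B2m-null tumours (Tfe3 -0.29 ± 0.12, adjusted p = 0.0584).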

How the data were processed

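Per the file headers and from their values, the authors deposited whole UMI counts per gene and hashtag for each cell barcode of 8 lanes. Per the submitters' processing notes they used Cell Ranger 3.0.0, bcl2fastq 2.20.0.422 and mm10, which is the GRCm38 build of the promoter table. The labels list 3 hashtags, whereas 6 lanes hold 2 and 2 lanes hold 3.

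Kept barcodes had 200 genes or more and a mitochondrial share of UMIs up to 10%, and 9543 hashtag doublets were removed. Mice were assigned from hashtag counts (mixture posterior of at least 0.9, at least 20 hashtag counts), for 49.7% to 89.9% of a lane's barcodes. The 91606 remaining cells were clustered with scanpy 1.11.5 and leidenalg 0.10.2 (2000 variable genes without the 9 described here, 40 components, 20 neighbours, resolution 1) into 27 clusters named by marker lists. Cluster 2, a mixture of T cell and myeloid transcripts, cluster 3, led by Tcf7, Satb1 and Klra7, and cluster 15, led by Mmp9, Ctsk and Acp5 in 208 cells, stayed unnamed. Counts were summed per mouse and class with at least 20 cells. They were fitted over all 4 groups with edgeR 4.0.16 (TMM scaling, filterByExpr, quasi-likelihood test, Benjamini-Hochberg over all tested genes, adjusted p under 0.05), and with DESeq2 1.42.0 as an alternative. Mice are separate animals, but those of a group shared pools. Gates were compared by exact sign-flip permutation tests over mice on log2 (CPM + 10), adjusted over all genes of at least 10 CPM in a gate. The design had adjusted over the 99 gene and gate pairs, which is now an alternative. Scripts were tested on simulated data. The gene set and the lists were chosen with earlier results of these data known. Counts at an unadjusted p under 0.05 stand without the share of all genes at that threshold and are not read as results. The text names the 9 genes, the 3 genes of lowest adjusted p of each other list, and the 5 genes most like Trem2 across clusters, save 1 gene of a list that is not reported here. Clec7a, of the phagocyte list, was not analysed here. Alternatives changed the scaling, filters, cell set, clustering, unit and replicates.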

Additional observations from a re-analysis of the deposited data

Results flagged for a closer look

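Within groups of 4 to 10 mice, 54 sets of values were searched for a mouse far from the rest, and chance flags about 1 in 20 of them. Fabp5 in macrophages of isotype-treated mouse 1 with a control tumour stood at 6660 CPM (next highest 4179), and that mouse had the fewest cells of all, 1178. Cd36 in macrophages of isotype-treated mouse 2 with a B2m-null tumour stood at 394 CPM, with the next lowest at 652.

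The CD40 effect differed between tumour types for 2 genes by edgeR's quasi-likelihood test of the difference itself. For Spp1 in macrophages the difference was 1.23 on the log2 scale (adjusted p = 0.0362), with a fall in control tumours. For Lgals3 in monocytes it was 1.31 (adjusted p = 0.00627), with a rise in B2m-null tumours. Both rest on the 2 CD40-treated mice of 1 pool with control tumours.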

How the results depend on the processing

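The 33 to 35 alternatives per comparison changed scaling, filters, cells, clusters, the unit and the mice or pools included, and each count of the 9 genes is given with the share of all tested genes that passed in the same fit. With the lane as the unit, 3 genes passed for CD40 in macrophages of B2m-null tumours (16.2% of all genes). By lane, 0 passed between tumour types under CD40 (1.13% in macrophages, 0.0897% in monocytes) and 0 for the difference of the effects (0.84% and 0.314%). Between tumour types under CD40, macrophages had 2 without a low-count filter (6.93%), with DESeq2 (15.0%) and under a stricter cell filter (14.2%). The difference in macrophages had 2 without the low-count filter (9.92%) and 0 without melanoma UMIs (19.0%), thinned to 2000 UMIs (11.3%) or at clustering resolution 2 (18.7%). In monocytes of control tumours 5 passed without the low-count filter (5.8%), 0 under the stricter filter (5.67%) or without melanoma UMIs (7.52%), and 2 at resolution 2 (6.56%) or with the 9 genes kept in the clustering (7.85%). Under isotype, monocytes had 3 without the low-count filter (2.66%) and 1 with the replicate block (3.6%). Under CD40 they had 4 without the low-count filter (5.5%), 0 when thinned (1.78%), and 1 under the stricter filter (5.52%), without T cell UMIs (6.71%) or at resolution 2 (3.5%). The difference in monocytes had 4 without the low-count filter (7.53%), 0 at resolution 2 (9.25%), and 2 when thinned (4.79%) or with the 9 genes kept (11.9%).

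Leaving out single mice or pools gave, for the 5 comparisons in the order CD40 in control, CD40 in B2m-null, B2m loss under isotype, under CD40 and the difference, 1 to 3, 2 to 6, 0 to 1, 0 to 2 and 0 to 2 genes in macrophages and 1 to 2, 3 to 7, 0 to 1, 0 to 3 and 0 to 3 in monocytes, and 64 to 70 gate pairs (70 in the main analysis). In these fits 8.71% to 26.8%, 18.4% to 36.5%, 0.297% to 16.1%, 2.02% to 17.3% and 5.44% to 26.0% of all genes passed in macrophages, and 1.74% to 9.98%, 24.6% to 35.6%, 0.233% to 7.51%, 0.373% to 10.7% and 3.72% to 18.2% in monocytes. Gate pairs numbered 66 thinned, 54 by lane, 65 with 50 cells, 71 in macrophages only and 75 adjusted over the 99 pairs. Over all genes and gates 49.4% of pairs passed in the main analysis, 31.9% thinned, 37.6% by lane, 51.8% with 50 cells, 47.9% in macrophages only, and 43.0% to 48.2% without single pools. The thinned, 50-cell and macrophage settings have 10 gates, without the non-classical one.

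In gates, thinning turned Fabp5 in C1q to -0.087 and in Vcam1 to -0.064, and in the resident-like gate Gpnmb to -1.01, Fabp5 to -0.94, Lpl to -0.52 and Cd36 to -0.055. In macrophages only, the classical monocyte gate turned to 0.024 for Fabp5, 0.25 for Cd9 and 0.17 for Lgals3, and Fabp5 turned to -0.11 in C1q and -0.094 in the resident-like gate. The cause was not tested.

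Same-numbered pools did not all deviate together (correlations of 0.007 to 0.19 in monocytes and 0.03 to 0.17 in macrophages), so the numbers are not taken to pair the pools. With the replicate block, 6 genes passed for CD40 in B2m-null tumours in macrophages (36.6% of all genes) and 7 in monocytes (39.0%). The control CD40 group, 2 mice of 1 pool, limits every comparison that uses it. Without either mouse, or by lane, it holds 1 sample, which is assumed to vary like the other groups.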
